A study of Mus musculus with 11 samples.

Results

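The comparison described here set 3 heart RNA-seq libraries from obese mice given the senolytic cocktail dasatinib plus quercetin against 4 libraries from obese mice without it, 7 of the 11 libraries of the study. Members were taken from the sample labels alone. All animals were females of the inbred strain C57BL/6NTac, put at 8 weeks of age on an obesogenic diet for 24 weeks. That diet joined a solid feed with 60.3% of its energy as fat to sweetened condensed milk. From week 16 on, 5 mg/kg of dasatinib with 50 mg/kg of quercetin, in 10% PEG400, was given to the treated mice by gavage on 3 days in a row each week. The protocol text says that the other obese mice were gavaged with 10% PEG400 alone, while the labels of the 4 obese libraries name only the diet. RNA came from the hearts, with no chamber named, and whether the libraries came from separate animals is not stated, so p-values measure only how far these libraries spread, which may be technical. The stated purpose was to learn what clearing senescent cells does to metabolic and cardiac dysfunction in obesity. The 4 control-diet libraries entered the estimate of the spread only and are not compared.

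Senescent cells have left the cell cycle for good, under the control of the p53 and p16 pathways, and secrete a mixture of cytokines, proteases and growth factors. They resist apoptosis through survival proteins such as those of the BCL-2 family. Dasatinib inhibits SRC-family and ABL kinases and several receptor kinases, and quercetin is a plant flavonol with many protein targets that also binds the aryl hydrocarbon receptor. Gene groups for these targets, for dividing cells, for blood cells and for the metabolism and cell types of the heart are described in turn.

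Depth was high in both groups, at 52736860 to 67247567 counts in the obese and 64199080 to 72282073 in the treated libraries. Levels are given in CPM, counts per 1000000 counts of a library after scaling between libraries. The mitochondrial chromosome took 23 ± 1.28% of the counts in the obese libraries (SD, n = 4) and 20.2 ± 2.28% in the treated ones (n = 3), with an exact two-sided permutation p of 0.114. The intronic share, counts of genes annotated as sense-intronic or as still to be checked by experiment (TEC), was 0.732 ± 0.0630% in the obese and 0.603 ± 0.0837% in the treated libraries. Both shares were also fitted as covariates. Across the 21 library measures tested in this way, no adjusted p was below 0.600, and with 4 against 3 libraries the smallest p possible is 0.0571. Myh6, the main myosin heavy chain of the adult mouse heart, stood at 15798, 10661, 13706 and 16055 CPM in obese replicates 1 to 4 and 16497, 16018 and 14708 CPM in treated replicates 1 to 3. Only 2 of the 13 thymus and lung markers passed the filter on low counts, and the list summed to 0.503 to 0.799 CPM in the obese and 0.380 to 0.680 CPM in the treated libraries. In whole-tissue RNA, fewer cells of a type and less RNA per cell cannot be told apart.

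The libraries differed widely in atrial transcripts, and this split crossed the groups. With values in replicate order, Myl7, the atrial myosin regulatory light chain, measured 0.394, 17.2, 352 and 31.8 CPM in obese replicates 1 to 4 and 3.09, 622 and 653 CPM in treated replicates 1 to 3. Sln, which encodes the calcium pump inhibitor sarcolipin of atrial myocytes, measured 0.188, 4.53, 128 and 12.6 CPM in obese replicates 1 to 4 and 0.665, 260.1 and 274 CPM in treated replicates 1 to 3. Obese replicate 3 and treated replicates 2 and 3 were therefore high in both genes, and obese replicate 1 and treated replicate 1 were low. Bmp10, a growth factor of atrial myocytes, followed another order, with 1.16, 1.04, 402 and 32.6 CPM in obese replicates 1 to 4 and 1.83, 5.42 and 1389 CPM in treated replicates 1 to 3: treated replicate 2 was high in Myl7 and Sln and low in Bmp10. All 14 atrial genes of the list had a positive log2 fold change, with a median of 1.45, but no member's groups were without overlap, and without the 3 high libraries the median was -0.35. The log2 fold changes of Myl7 and Sln were 2.09 ± 1.96 and 2.30 ± 1.94 (SE) with all libraries and -2.41 and -3.12 without those 3, so neither gene has a direction that holds. Values without these 3 libraries stand beside many of the results below, and a result given with no such value is not thereby shown to be stable. Without them 3 obese libraries and 1 treated library remain, and the lone treated library is assumed to vary like the others.

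**Figure D1:**
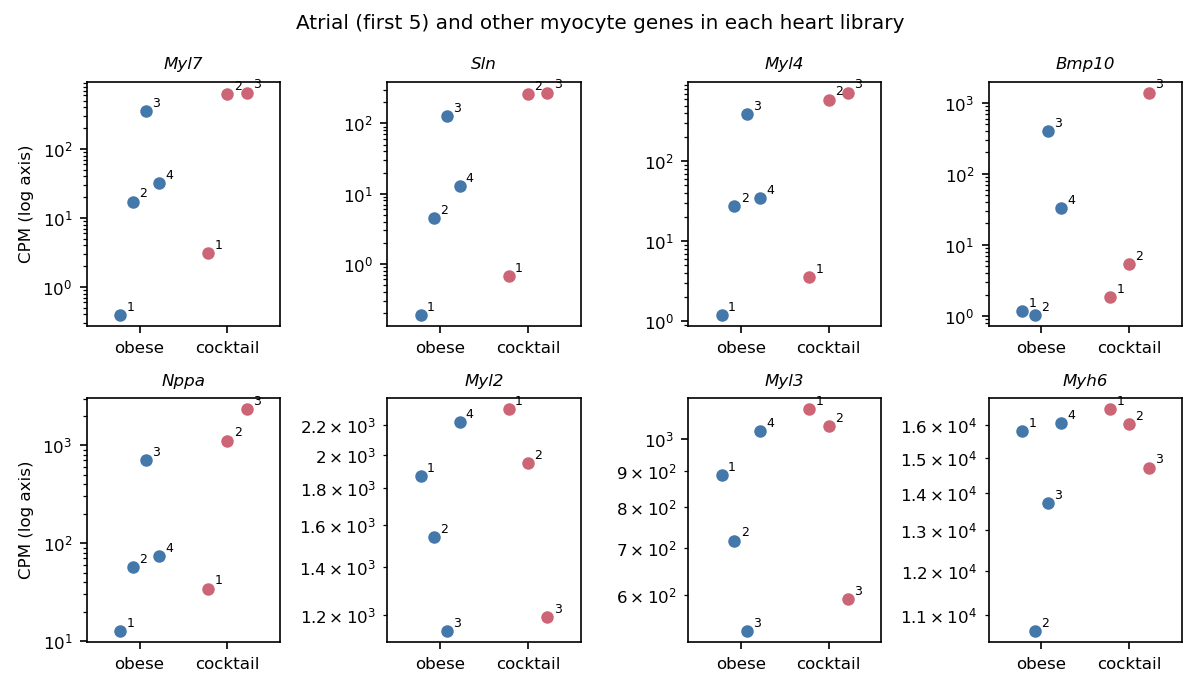
Levels in CPM on log axes for 5 atrial genes (Myl7, Sln, Myl4, Bmp10 and Nppa) and 3 other myocyte genes in each library; points are libraries and the digits are replicate numbers. Obese replicate 3 and treated (cocktail) replicates 2 and 3 are high in Myl7 and Sln, with 352 to 653 CPM and 128 to 274 CPM, whereas Bmp10 is high in obese replicate 3 and treated replicate 3.

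Of 55487 gene identifiers, 23779 passed the filter and were tested with edgeR's quasi-likelihood test with Benjamini-Hochberg adjustment. At an adjusted p under 0.05, 0 genes passed (0.0%). At an unadjusted p under 0.05 there were 1198 genes higher in the treated hearts (5.04%) and 1227 lower (5.16%), 2425 in all (10.2%). The groups did not overlap in 1114 genes that were higher (4.68%) and 1296 that were lower (5.45%) with treatment, 2410 in all (10.1%). DESeq2 called 132 genes (0.555%) on the same counts, 52 higher (0.219%) and 80 lower (0.336%), and limma voom called 0. Without obese replicate 3, edgeR called 24 genes, 15 higher and 9 lower, and without the 3 libraries high in Myl7 and Sln it called 5. Since no gene passed the main test, the differences below are given as values, and "higher" and "lower" describe the libraries measured. The median log2 fold change of all genes tested was -0.01, with an interquartile range of -0.24 to 0.20.

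The gene nearest to the threshold was Tfrc, which encodes the transferrin receptor that carries iron into cells and lies at chr16:32608920-32632794 (GRCm38). It measured 49.2, 66.2, 48.2 and 58.4 CPM in obese replicates 1 to 4 and 20.6, 26.7 and 29.1 CPM in treated replicates 1 to 3. Every treated library was below every obese one, with a log2 fold change of -1.12 ± 0.14 (SE) and an adjusted p of 0.0518 by edgeR and 2.58e-08 by DESeq2. Leaving out single libraries moved the log2 fold change between -1.23 and -0.99, and it was -1.48 without the 3 libraries high in Myl7 and Sln. Next came Fstl4, a member of the follistatin-like family at chr11:52764634-53188538, with 5.48, 7.45, 7.86 and 6.58 CPM in obese replicates 1 to 4 and 14.6, 15.9 and 14.4 CPM in treated replicates 1 to 3. Its treated libraries lay within 2 CPM of each other, and its log2 fold change was 1.13 ± 0.16 (adjusted p 0.0664 by edgeR, 1.57e-06 by DESeq2).

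Further genes among the 12 with the smallest p, at a mean of at least 1 CPM and with predicted genes left out, also separated the groups without overlap. Doc2g, of the double C2-domain family, stood at 43.4, 41.7, 45.4 and 44.9 CPM without and 72.8, 66.3 and 91.3 CPM with the cocktail, and its 4 obese libraries lay within 4 CPM of each other. Kcnc1, a voltage-gated potassium channel of fast-firing cells, was low in all libraries, with 0.771, 1.56, 1.89 and 1.41 CPM without and 5.04, 4.09 and 5.12 CPM with the cocktail. Gabarapl1, an ATG8-family protein of the autophagosome membrane, measured 29.7, 30.01, 43.8 and 33.7 CPM without and 56.3, 66.1 and 54.7 CPM with the cocktail. Their log2 fold changes were 0.81, 1.75 and 0.78, with adjusted p by edgeR of 0.124, 0.141 and 0.184. Ptgds, a prostaglandin D synthase, was highest in treated replicate 1 (71.4, 98.8, 82.3 and 113 CPM without and 381, 198 and 172 CPM with the cocktail). Without that library its log2 fold change was 1.02, against 1.45 with all libraries. Wfikkn2, a secreted binding protein of myostatin and GDF11, and Cnksr1, a scaffold of Ras signalling, were also higher, at log2 0.87 and 0.98.

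Lower in every treated library were the receptor genes Lilrb4a and Lilr4b of myeloid cells. Lilrb4a had a mean of 12.7 ± 2.67 CPM in the obese (SD, n = 4) and 6.61 ± 0.640 CPM in the treated hearts (n = 3). Lilr4b had 8.69 ± 1.21 CPM and 4.98 ± 0.404 CPM in the same groups. These genes are near-identical neighbours, so the split of reads between them is uncertain. Dach1, a transcription factor with a role in coronary artery growth, measured 23.3, 22, 18.6 and 21.2 CPM without and 15.3, 12 and 13.5 CPM with the cocktail, a log2 fold change of -0.64 ± 0.12. Top2a completes the group of 12 and is described with the proliferation genes.

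**Figure D2:**
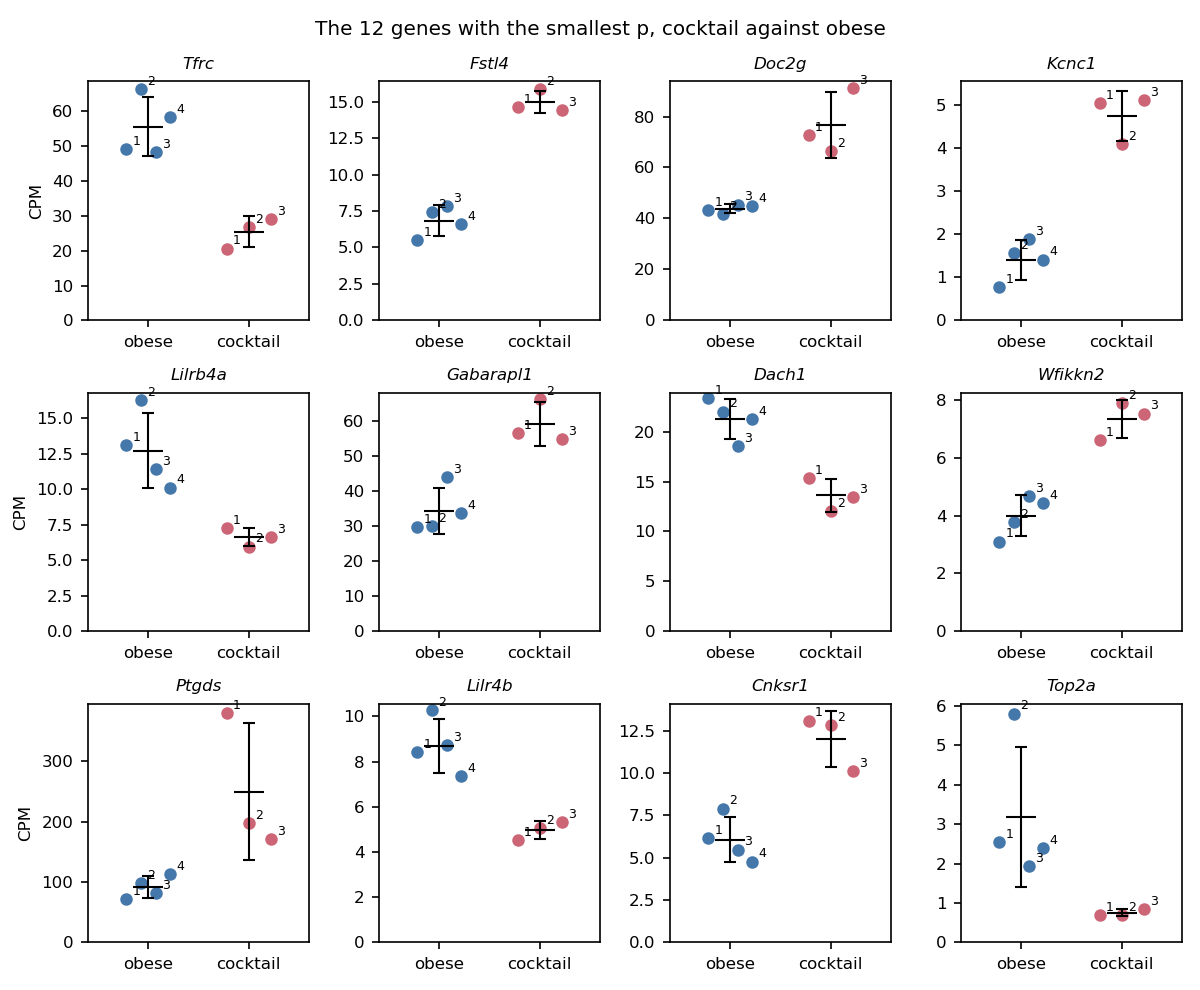
Levels in CPM (linear axes from 0) of the 12 genes with the smallest p among those with a mean of at least 1 CPM, predicted genes left out. Points are libraries with their replicate numbers, and black bars are the mean ± SD of 4 obese and 3 treated (cocktail) libraries. In each panel the groups do not overlap, as for Tfrc at 48.2 to 66.2 CPM in obese and 20.6 to 29.1 CPM in treated libraries.

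Differences were ranked by size among genes with a mean of at least 1 CPM, an unadjusted p under 0.05 and no overlap, predicted genes left out. The largest upward were in Grin2c, an NMDA receptor subunit, then the metallothionein gene Mt2, then Vgll2, a cofactor of TEAD transcription factors in muscle. Grin2c measured 0.668, 0.141, 1.57 and 0.306 CPM without and 3.25, 2.86 and 4.95 CPM with the cocktail, a log2 fold change of 2.46 ± 0.60. Vgll2 measured 0.240, 0.833, 0.863 and 0.845 CPM without and 1.01, 2.58 and 3.52 CPM with the cocktail, and its log2 fold change of 1.77 was 0.65 without the 3 libraries high in Myl7 and Sln. Mroh7 and Lrrc4b followed at log2 1.19 and 1.15, after Kcnc1, Ptgds and Mt1. Downward, 5 of the 8 largest were genes of dividing cells: Mki67, Top2a, Knl1, Iqgap3 and Kif23. The other 3 were Lgi1, a secreted protein of synapses (5.12, 3.08, 1.85 and 4.59 CPM without and 1.69, 1.06 and 0.963 CPM with the cocktail), Asxl3, a Polycomb-associated gene (log2 -1.49), and Slc4a1, the band 3 anion exchanger of red cells.

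Proliferation genes had the lowest median of all lists. Of 48 genes of mitosis, chromosome segregation and DNA replication, all tested, 0 passed the adjusted threshold in edgeR. An unadjusted p under 0.05 was reached by 21 in the lower direction and 1 in the higher, against 5.16% and 5.04% of all genes. Without overlap, 21 were lower and 1 higher, against 5.45% and 4.68% of all genes. DESeq2 called 8 of them lower and none higher, against 0.336% and 0.219% of all genes. The median log2 fold change was -0.75 against -0.01 over all genes, and 40 of 48 members were negative. Mki67, the gene of the proliferation marker Ki-67, measured 10.2, 22.6, 5.70 and 9.83 CPM without and 2.71, 2.42 and 3.36 CPM with the cocktail, a log2 fold change of -2.09 ± 0.43 (adjusted p 0.341 by edgeR, 8.94e-05 by DESeq2). Top2a, the DNA topoisomerase that untangles chromosomes before division, measured 2.55, 5.80, 1.93 and 2.39 CPM without and 0.695, 0.697 and 0.853 CPM with the cocktail, with a log2 fold change of -2.08 ± 0.41. The 3 treated libraries were close to each other in both genes, and obese replicate 2 was the highest library.

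Several mitotic genes of the list were lower in the treated libraries. Kif23, a kinesin of the cleavage furrow, measured 2.07, 2.59, 1.37 and 1.37 CPM without and 0.695, 0.608 and 0.609 CPM with the cocktail. Cenpe, a kinetochore motor, measured 1.73, 1.90, 0.959 and 1.11 CPM without and 0.695, 0.507 and 0.378 CPM with the cocktail. Neil3, a DNA repair enzyme of dividing cells, had the lowest log2 fold change of the list, -2.74 ± 0.60, with a mean of 0.696 ± 0.408 CPM (SD, n = 4) without and 0.105 ± 0.0632 CPM (n = 3) with the cocktail. By contrast the replication helicase genes Mcm2, Mcm3, Mcm4, Mcm5, Mcm6 and Mcm7 had log2 fold changes of -0.04, -0.25, 0.27, -0.17, 0.10 and 0.05, and Pcna, the sliding clamp of DNA polymerase, 0.27. This contrast within the list was chosen after the values were seen, and the difference between the 2 kinds of gene was not tested. Gins2, a subunit of the replication helicase complex, was the 1 member higher without overlap, at 0.205, 0.377, 0.144 and 0.262 CPM without and 0.769, 2.00 and 1.18 CPM with the cocktail.

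The median of the proliferation genes was -0.88 without the 3 libraries high in Myl7 and Sln, a fit with 1 treated library. With the atrial level as a covariate it was -0.69, and 18 members were lower at an unadjusted p under 0.05, in place of 21. The median lay between -0.89 and -0.51 when single libraries were left out, the latter without obese replicate 2. Over the list, the summed level was 128 to 165 CPM without and 102 to 111 CPM with treatment. The mean log2 CPM of the list was 0.596 ± 0.386 and -0.139 ± 0.0833 in the 2 groups, which did not overlap. Levels of most members were low, so small numbers of cells or of transcripts carry these values.

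**Figure D3:**
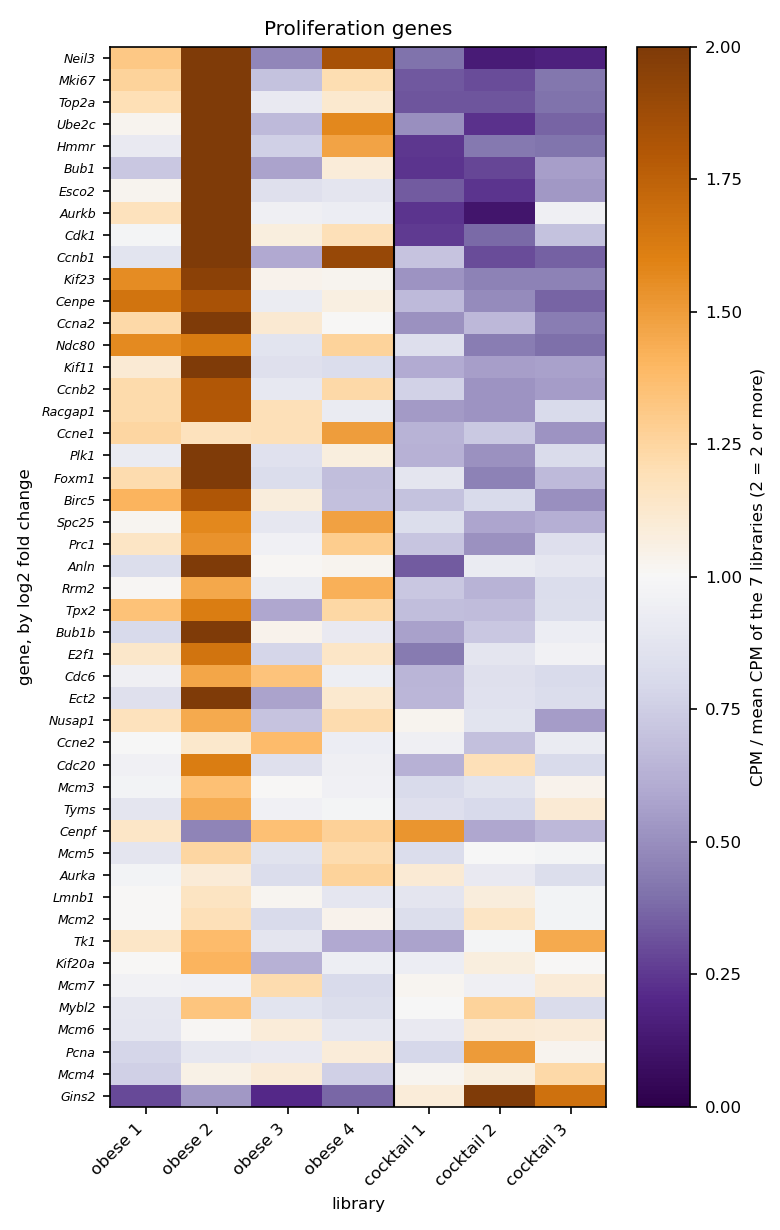
Each row is 1 of the 48 proliferation genes, ordered by log2 fold change, each column a library, and the colour is the level in CPM divided by the gene's mean over the 7 libraries (purple below 1, orange above 1, full colour at 2 or more). Most upper rows are purple in the 3 treated (cocktail) libraries and most intense in obese replicate 2, while Mcm genes and Pcna near the bottom show no such contrast and Gins2 shows the opposite one.

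Mitotic genes are commonly controlled through CCAAT boxes, bound by NF-Y, and a cell cycle homology region, bound by the DREAM complex, in the promoter. The 250 bases before the RefSeq start sites of Top2a and Mki67 (GRCm38.p6) are printed 5′ to 3′ on the gene's strand because they had the largest differences in the list among members with a mean of at least 1 CPM. Capitals mark CCAAT (or ATTGG on the other strand) and the cell cycle homology region searched as TTTGAA or TTTAAA (or their reverse complements). Top2a lies on the minus strand, with the window at chr11:99024190-99024439, and Mki67 on the minus strand, with the window at chr7:135716380-135716629.
Top2a: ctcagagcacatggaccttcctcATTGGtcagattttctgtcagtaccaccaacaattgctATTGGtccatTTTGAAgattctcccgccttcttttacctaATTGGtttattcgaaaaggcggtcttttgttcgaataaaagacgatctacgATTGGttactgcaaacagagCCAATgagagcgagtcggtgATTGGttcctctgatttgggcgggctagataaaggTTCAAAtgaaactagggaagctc
Mki67: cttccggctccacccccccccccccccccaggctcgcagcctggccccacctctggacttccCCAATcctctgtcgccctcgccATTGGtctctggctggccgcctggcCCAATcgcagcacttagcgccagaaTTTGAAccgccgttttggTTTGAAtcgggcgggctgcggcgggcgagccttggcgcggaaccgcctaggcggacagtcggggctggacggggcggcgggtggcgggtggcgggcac
The Top2a window holds 6 CCAAT boxes and 2 cell cycle homology matches, and the Mki67 window 3 and 2. The windows of Kif23 and Cenpe, scanned too but not printed, hold 1 CCAAT box each and 0 cell cycle homology matches. CCAAT was found in 27 of the 38 list members matched to a RefSeq promoter (71.1%). Of all 27025 genes with windows of the same length it was found in 37.5%. Each gene was counted once, by a match in any of its windows. The cell cycle homology letters were found in 17 of 38 (44.7%) and in 28.1% of all. A match is a run of letters in this window, not a measured site.

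Red cell genes were lower as well. Of 16 erythroid genes 12 were tested, 7 had an unadjusted p under 0.05 in the lower direction and 0 in the higher, and 5 did not overlap, against 5.16% and 5.45% of all genes. Their median was -0.67. Hbb-bs, an adult beta-globin gene, measured 341, 381, 231 and 485 CPM without and 211, 188 and 185 CPM with the cocktail. Its neighbour Hbb-bt measured 222, 240.2, 139.8 and 307 CPM without and 129, 108 and 104 CPM with the cocktail. Alas2, the first enzyme of heme synthesis in red cell precursors, measured 28.5, 29.4, 22.1 and 36.4 CPM without and 19.6, 14.2 and 15 CPM with the cocktail. Obese replicate 3 was the lowest obese library in all 3 genes, and still above each treated library. The log2 fold changes were -0.89 in Hbb-bs, -1.0 in Hbb-bt and -0.84 in Alas2, with adjusted p by edgeR of 0.354, 0.325 and 0.356. Hba-a1 overlapped between the groups, with 407, 462, 263 and 542 CPM without and 279.8, 291 and 228 CPM with the cocktail. Globin genes are near-identical copies, so their separate values are uncertain.

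Tfrc is 1 of 19 tested iron handling genes, which had a median of 0.16. Of these, 2 were higher and 1, Tfrc itself, was lower at an unadjusted p under 0.05, against 5.04% and 5.16% of all genes. Bmp6, the growth factor that signals iron loading, was higher in each treated library (28.6, 24.2, 35.6 and 29.6 CPM without and 48.1, 39.6 and 44.3 CPM with the cocktail). So was Ftl1, the light chain of the storage protein ferritin (81.7, 92.7, 119 and 101 CPM without and 123, 191 and 159.6 CPM with the cocktail). Fth1, the ferritin heavy chain, overlapped between the groups with a log2 fold change of 0.36 ± 0.17.

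Cdkn2a, which encodes the senescence marker p16, did not pass the filter, with 0.0685, 0.220, 0.0320 and 0.0437 CPM without and 0.0296, 0 and 0.0975 CPM with the cocktail, so no difference in it was detectable at this depth. Cdkn1a, which encodes the p53-driven inhibitor p21, measured 12.6, 11.3, 16.3 and 12.7 CPM without and 26.7, 12.4 and 20.9 CPM with the cocktail. Treated replicates 1 and 3 were above all obese libraries and treated replicate 2 was among them, with a log2 fold change of 0.60 ± 0.21 and an adjusted p by edgeR of 0.407. It was 1.14 (adjusted p 0.109) without the 3 libraries high in Myl7 and Sln, and 0.34 to 0.85 when single libraries were left out. Among 15 tested cell cycle inhibitors and p53-RB genes 1 was higher and 1 lower at an unadjusted p under 0.05 (median -0.06), and among 24 p53 targets 2 and 2 (median -0.03), where all genes gave 5.04% and 5.16%. Perp, a p53 target of desmosomes, was higher without overlap (29.6, 28.9, 41.5 and 34 CPM without and 49.7, 69.2 and 51.2 CPM with the cocktail). Trp53 measured 11.9, 20.2, 13 and 12.1 CPM without and 10.6, 12.2 and 11.4 CPM with the cocktail, highest in obese replicate 2.

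The senescence-associated secretory list gave 43 tested genes of 50, with 1 higher and 3 lower at an unadjusted p under 0.05, against 5.04% and 5.16% of all genes, and a median of -0.03. Without the 3 libraries high in Myl7 and Sln the median was -0.52. Igfbp6, an IGF-binding protein, had the smallest p of the list, at 3.51, 5.64, 8.61 and 4.41 CPM without and 7.63, 20.1 and 16 CPM with the cocktail, but treated replicate 1 lay within the obese range. Its log2 fold change of 1.40 was 0.76 without those libraries. Cxcl12, a chemokine of stromal cells, measured 188, 244, 148 and 234 CPM without and 169, 141 and 123 CPM with the cocktail. Il6 did not pass the filter, with at most 0.141 CPM in any library. Gdf15, a stress-induced cytokine, measured 0.445, 2.11, 0.767 and 1.24 CPM without and 1.08, 2.25 and 1.65 CPM with the cocktail, with a log2 fold change of 0.54 ± 0.43 that was -0.22 without them.

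Genes of the BCL-2 family, which holds survival proteins that shield senescent cells and also death-promoting proteins, had a median of -0.01 over 20 tested genes. At an unadjusted p under 0.05, 2 were higher and 0 lower, against 5.04% and 5.16% of all genes. Those 2 were Bcl2l2, of the survival protein BCL-W (log2 0.26), and Bcl2l11, of the death-promoting protein BIM (log2 0.29), named after their values were seen. Bcl2 measured 16.2, 22.2, 16.8 and 17.3 CPM without and 15.2, 14.4 and 16 CPM with the cocktail, each treated library just below the lowest obese one. Its log2 fold change of -0.25 ± 0.14 had an adjusted p by edgeR of 0.551. Bcl2l1, which encodes BCL-XL, measured 68.5, 47.3, 57.5 and 66.2 CPM without and 98, 47.5 and 75.8 CPM with the cocktail and was highest in treated replicate 1.

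Of 44 kinases inhibited by dasatinib 41 were tested, with 1 higher and 7 lower at an unadjusted p under 0.05, against 5.04% and 5.16% of all genes, and a median of -0.01. From 2 to 7 were lower when single libraries were left out, and 2 with the mitochondrial share as a covariate. Kit, the stem cell factor receptor of mast cells and progenitors, measured 5.79, 8.71, 4.81 and 4.52 CPM without and 3.02, 3.41 and 3.51 CPM with the cocktail, with each treated library below each obese one (log2 -0.85 ± 0.26). Ephb1, an ephrin receptor, was lower without overlap too, at 6.10, 5.75, 4.73 and 8.04 CPM without and 4.33, 3.14 and 3.24 CPM with the cocktail. Sik3, a salt-inducible kinase, was the member higher without overlap, at 109.6, 67.4, 92.3 and 96.2 CPM without and 139, 129 and 134 CPM with the cocktail. The principal targets Abl1 and Src, a pair of tyrosine kinases, had log2 fold changes of -0.08 ± 0.11 and 0.10 ± 0.22, and Fyn -0.32 ± 0.11. Without the 3 libraries high in Myl7 and Sln, Src was -0.55.

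Genes that respond to foreign compounds were measured because quercetin binds the aryl hydrocarbon receptor. Cyp1a1, the cytochrome P450 induced through the aryl hydrocarbon receptor, had 0, 3, 4 and 0 counts in obese replicates 1 to 4 and 53, 11 and 4 in treated replicates 1 to 3, so most of its signal came from treated replicate 1. No label or processing note says if such counts are whole reads or were computed from coverage. Its log2 fold change of 3.44 ranged from 1.70 to 4.19 when single libraries were left out, the lower value without treated replicate 1, and was 5.49 without the 3 libraries high in Myl7 and Sln. Of the 21 tested genes of this list 5 were higher and 0 lower at an unadjusted p under 0.05, against 5.04% of all genes higher, with a median of 0.20. Without those 3 libraries the median was 0.13, and with the mitochondrial share as a covariate it was -0.02. Por, the electron donor of the cytochromes P450, was the member higher without overlap, at 22, 19.4, 25.2 and 26.6 CPM without and 29.1, 33 and 32.4 CPM with the cocktail. Ahrr, the repressor of the receptor, measured 2.33, 2.55, 1.74 and 2.70 CPM without and 3.59, 3.84 and 2.57 CPM with the cocktail. Among 28 targets of the oxidative stress factor NRF2, 6 were higher and 0 lower at an unadjusted p under 0.05 (median 0.23). Without overlap 6 were higher, against 4.68% of all genes. The median was 0.15 without those 3 libraries. With the intronic share as a covariate 3 were higher at that p and 2 lower, where over all genes 905 were higher and 1071 lower. With the mitochondrial share 14 were higher and 0 lower, where over all genes 1926 were higher in place of 1198. Osgin1 measured 3.18, 2.08, 3.60 and 3.04 CPM without and 5.49, 5.34 and 4.75 CPM with the cocktail. Gclm, a subunit of the enzyme that starts glutathione synthesis, measured 12.5, 12, 15.5 and 16 CPM without and 19.3, 18.9 and 18.6 CPM with the cocktail. Nqo1, a much used NRF2 marker, overlapped, with a log2 fold change of -0.02 ± 0.31.

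The metallothionein genes Mt1 and Mt2, which encode small proteins that bind zinc and copper, were higher in every treated library. Mt2 measured 3.99, 3.24, 14.2 and 5.36 CPM without and 22.7, 25.9 and 22 CPM with the cocktail. Its neighbour Mt1, at chr8:94179082-94180327, measured 63.5, 36.1, 107 and 66.8 CPM without and 182, 154 and 147 CPM with the cocktail. Obese replicate 3 was the highest obese library in both. Their log2 fold changes were 1.81 ± 0.44 and 1.23 ± 0.27, with adjusted p of 0.354 and 0.354 by edgeR and 0.0362 and 0.00619 by DESeq2. With single libraries left out, the adjusted p by edgeR ran from 0.00169 to 0.959 for Mt2 and from 0.0413 to 0.959 for Mt1. The lowest values came without obese replicate 3. The log2 fold changes then ran from 1.58 to 2.49 for Mt2 and from 1.02 to 1.54 for Mt1. The other 5 tested genes of this list did not pass an unadjusted p of 0.05.

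Both metallothioneins also belong to a list of 21 glucocorticoid-responsive genes, in which 5 were higher and 0 lower at an unadjusted p under 0.05 (median 0.43), against 5.04% of all genes higher. Without the 3 libraries high in Myl7 and Sln the median was 0.73. With the mitochondrial share as a covariate 4 were higher (median 0.24). The other 3 of the 5 were Pdk4, Lcn2 and Cdkn1a. Pdk4, the kinase that holds back glucose oxidation, measured 252, 224, 494 and 230.4 CPM without and 979, 434 and 610.3 CPM with the cocktail, with treated replicate 2 below obese replicate 3. Its log2 fold change was 1.17 ± 0.30, and 2.06 without those 3 libraries. Lcn2, the iron-siderophore carrier lipocalin-2, measured 1.49, 1.40, 3.99 and 1.68 CPM without and 4.63, 4.58 and 4.53 CPM with the cocktail.

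**Figure D4:**
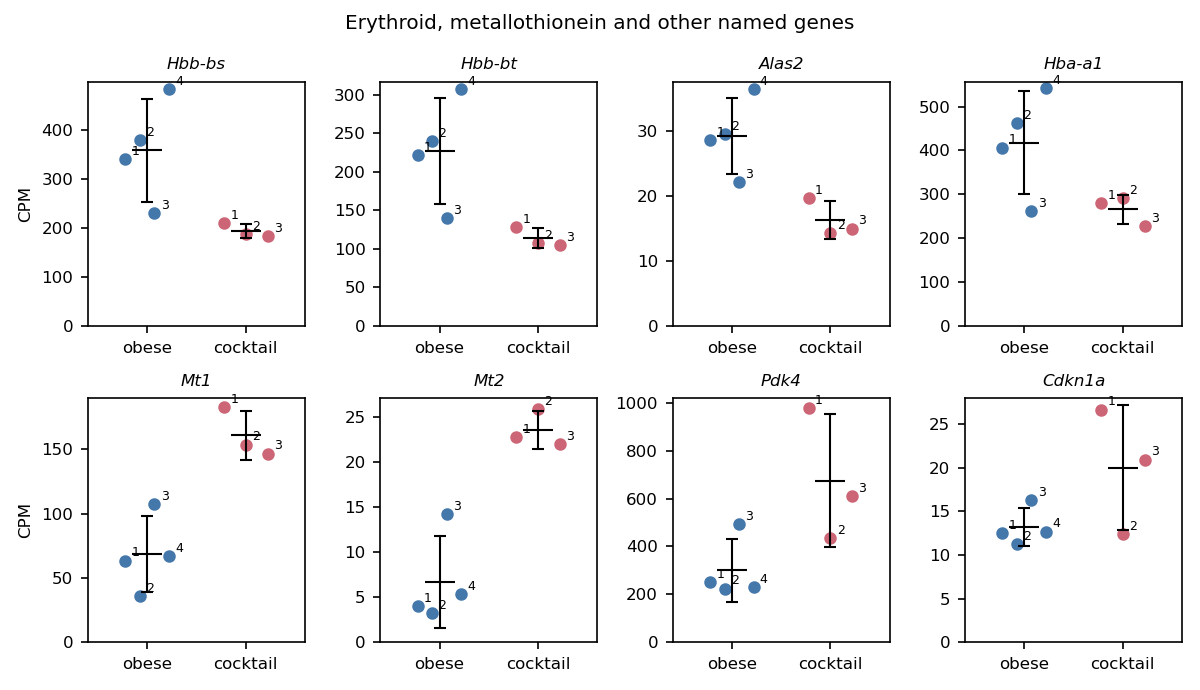
Levels in CPM (linear axes from 0) of 4 erythroid genes, 2 metallothioneins, Pdk4 and Cdkn1a; points are libraries with replicate numbers and black bars the mean ± SD of 4 obese and 3 treated (cocktail) libraries. Hbb-bs, Hbb-bt and Alas2 are lower and Mt1 and Mt2 higher in all 3 treated libraries than in any obese one, whereas Hba-a1, Pdk4 and Cdkn1a overlap.

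Of 25 tested genes of insulin and FoxO signalling 23 had positive log2 fold changes. In this insulin, FoxO and muscle atrophy list 7 were higher and 0 lower at an unadjusted p under 0.05, against 5.04% of all genes higher. Without overlap 8 were higher, against 4.68% of all genes. The median was 0.30, and 0.31 without the 3 libraries high in Myl7 and Sln. Eif4ebp1, a brake on translation under mTOR, measured 16.6, 13.1, 17.5 and 15.2 CPM without and 21.5, 32.4 and 23.7 CPM with the cocktail. Irs2, an insulin receptor substrate, measured 35.9, 29, 29.4 and 35.6 CPM without and 43.8, 47.4 and 49.98 CPM with the cocktail. Igf1r, the IGF-1 receptor, measured 56, 65.1, 78.5 and 57.3 CPM without and 82.5, 86.1 and 100.4 CPM with the cocktail. Fbxo32, the ubiquitin ligase atrogin-1, measured 165, 116, 164 and 159.7 CPM without and 216, 224 and 194 CPM with the cocktail. In these 4 genes every treated library was above every obese one. Of 27 autophagy genes 6 were higher and 0 lower, against the same 5.04%. The median was 0.18, and 0.16 without the 3 libraries high in Myl7 and Sln. With the intronic share as a covariate 2 were higher, and with the mitochondrial share 11. Over all genes 905 and 1926 were higher in those fits, in place of 1198. Sqstm1, the cargo receptor p62, measured 166, 144, 150.2 and 186 CPM without and 232, 246 and 198 CPM with the cocktail. Gabarap and Map1lc3b, kin of Gabarapl1, had log2 fold changes of 0.57 and 0.42, each without overlap.

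Of 28 targets of PPAR-alpha, the fatty acid receptor of the heart, 3 were higher and 0 lower at an unadjusted p under 0.05. All genes gave 5.04% and 5.16%. The median of these targets was 0.20, and 0.42 without the 3 libraries high in Myl7 and Sln. Txnip, which limits glucose uptake, measured 427, 364, 659 and 349 CPM without and 803, 748 and 657 CPM with the cocktail. The 23 beta-oxidation enzymes held 0 members at an unadjusted p under 0.05 (median 0.06). So did the 53 nuclear respiratory chain subunits (median 0.16, 50 positive) and the 13 mRNAs of the mitochondrial chromosome (median -0.15, all 13 negative). With the mitochondrial share of the counts as a covariate, a share to which these 13 mRNAs themselves add, the medians were 0.39 for the beta-oxidation enzymes, 0.49 for the nuclear subunits and 0.15 for the mitochondrial mRNAs, so the signs were no longer opposite. In that fit 11 of the 28 PPAR-alpha targets, 12 of the 23 enzymes and 48 of the 53 subunits were higher at an unadjusted p under 0.05. Over all genes the higher ones numbered 1926 in place of 1198. With the intronic share as a covariate the median of the subunits was -0.12. Among 32 glycolysis genes 4 were higher and 0 lower (median 0.17, and 0.19 without the 3 libraries). With the mitochondrial share as a covariate 17 were higher. With all libraries and no covariate, Hk1 and Slc2a1 (GLUT1) stood at log2 0.45 and 0.45.

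Of 34 genes of the unfolded protein and integrated stress responses 5 were higher and 0 lower at an unadjusted p under 0.05. Over all genes 5.04% were higher. Without overlap 8 were higher, against 4.68% of all genes. The median was 0.28, and 0.08 without the 3 libraries high in Myl7 and Sln. With the mitochondrial share as a covariate 12 members were higher at that p, and over all genes 1926 in place of 1198. With the intronic share 3 were higher and 1 lower, and over all genes 905 were higher. Atf5, a stress transcription factor, measured 15.4, 18.9, 18.2 and 20.1 CPM without and 22.8, 31.9 and 28 CPM with the cocktail. Herpud1, of the endoplasmic reticulum degradation machinery, measured 141, 76.6, 169 and 144 CPM without and 272, 217 and 190.2 CPM with the cocktail. Of 22 heat shock genes 2 were higher and 0 lower (median 0.21, and 0.10 without those 3 libraries). With the mitochondrial share as a covariate 13 were higher, beside the 1926 of all genes given above, and with the intronic share 1. Core clock genes had a median of -0.03, and -0.10 without those 3 libraries. With all libraries 4 of 21 were higher at an unadjusted p under 0.05. Among them were the nuclear receptor Rora and the repressor Cry2, at log2 0.44 and 0.36, each without overlap.

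Hypertrophy and wall stress genes had positive values in all 20 members with a median of 0.31. Only 3 were higher at an unadjusted p under 0.05, against 5.04% of all genes. The median was -0.02 without the 3 libraries high in Myl7 and Sln. Nppa, which encodes atrial natriuretic peptide, measured 12.6, 56.4, 712 and 73.7 CPM without and 34.3, 1116 and 2346 CPM with the cocktail. Nppb, of the B-type peptide, measured 4.02, 19.9, 12.8 and 7.30 CPM without and 6.03, 26.7 and 30.5 CPM with the cocktail. Myh7, the slow myosin heavy chain that returns in stressed ventricles, measured 921, 1127, 776 and 841 CPM without and 1155, 1627 and 1345 CPM with the cocktail, with a log2 fold change of 0.59 ± 0.22 and of 0.27 without those libraries. Ccn2, connective tissue growth factor, measured 34.2, 68, 91.8 and 33.2 CPM without and 66.4, 229 and 282 CPM with the cocktail. Without those libraries the log2 fold change of Ccn2 went from 1.76 to 0.57, of Nppa from 2.45 to -0.47 and of Nppb from 0.94 to -0.77. Nppa, Nppb and Ccn2 were highest in treated replicates 2 and 3, which were rich in Myl7 and Sln. Obese replicate 3, also rich in both, was the highest obese library in Nppa and Ccn2. In Nppb it measured 12.8 CPM, below obese replicate 2 at 19.9 CPM.

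**Figure D5:**
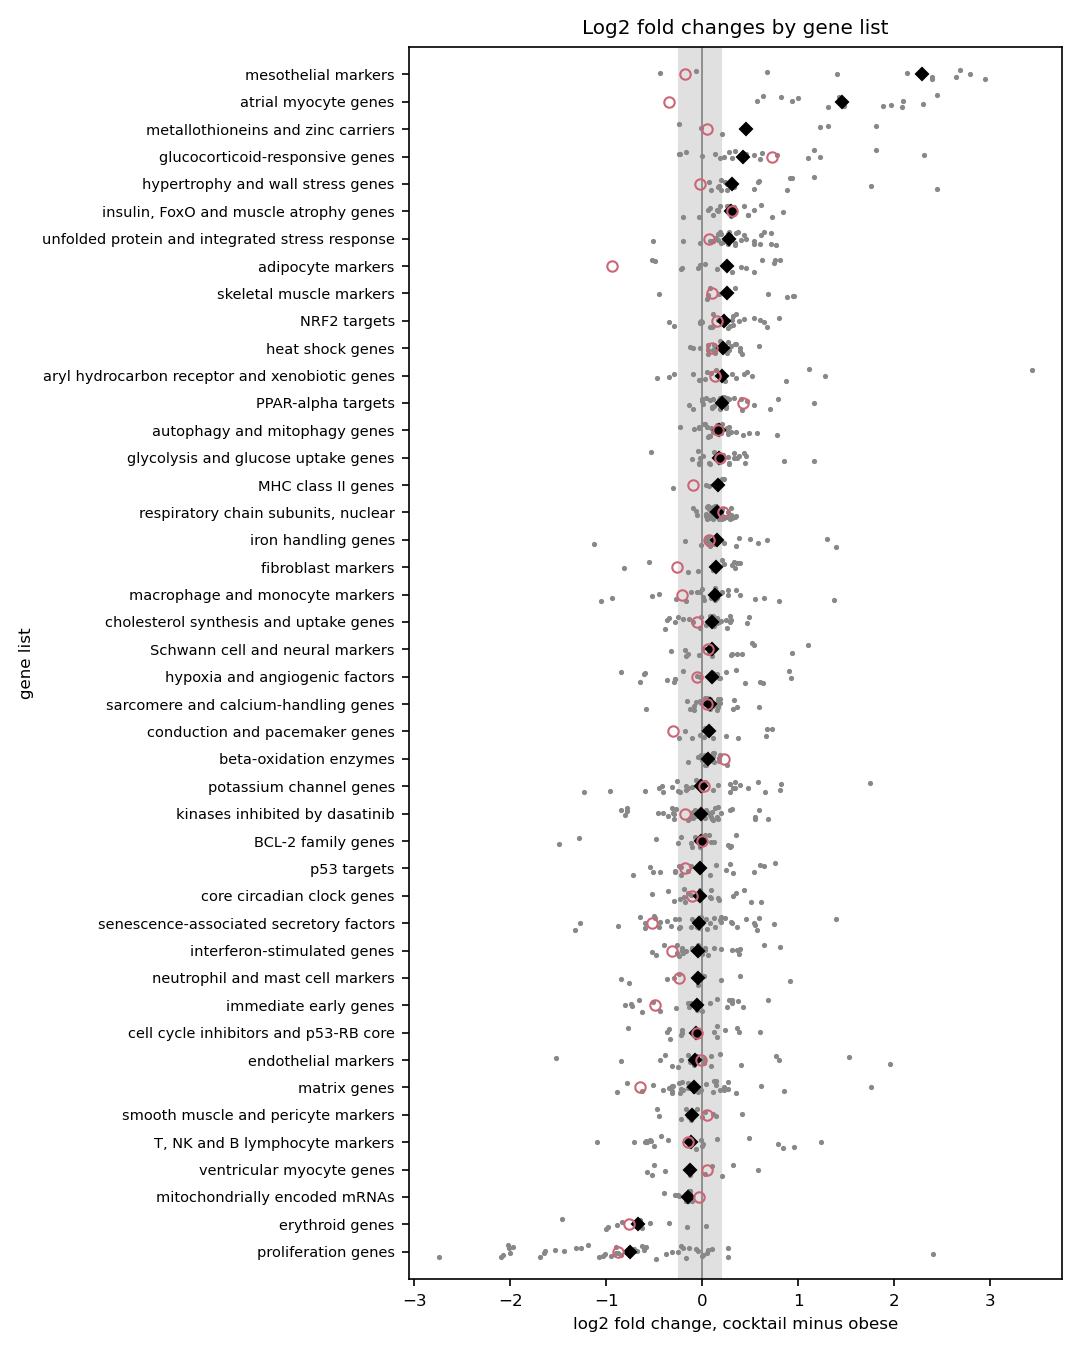
Log2 fold changes (treated minus obese) of the tested members (grey points) of each gene list with 7 or more tested members; black diamonds are medians with all libraries, open circles medians without the 3 libraries high in Myl7 and Sln, and the grey band spans the interquartile range of all genes (-0.24 to 0.20). Proliferation and erythroid genes lie left of the band with and without those libraries, at -0.75 and -0.88 and at -0.67 and -0.76, whereas mesothelial and atrial genes leave the right side of it when the libraries are left out.

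Endothelial markers had a median of -0.08 over 23 genes, with Aplnr, the apelin receptor, at 10.5, 30.3, 6.74 and 11.3 CPM without and 4.30, 7.57 and 3.47 CPM with the cocktail. Plvap, of fenestrated endothelium, measured 2.59, 4.97, 10.9 and 2.84 CPM without and 4.73, 29.2 and 28.1 CPM with the cocktail, high in treated replicates 2 and 3, and its log2 fold change of 1.96 was 0.46 without the 3 libraries high in Myl7 and Sln. Apln, the ligand of that receptor, measured 2.47, 3.96, 1.98 and 4.25 CPM without and 1.72, 1.86 and 1.71 CPM with the cocktail and was lower without overlap. Fibroblast markers had a median of 0.15, smooth muscle and pericyte markers -0.11, macrophage and monocyte markers 0.13 and lymphocyte markers -0.12. Without the 3 libraries high in Myl7 and Sln these medians were -0.26, 0.05, -0.21 and -0.15, so the first 3 turned sign. Matrix genes, the collagens and their partners, had a median of -0.09. Of 36, 1 was higher and 0 lower at an unadjusted p under 0.05, against 5.04% and 5.16% of all genes. Without those libraries that median was -0.65, and Col1a1 went from -0.15 to -1.03.

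Mesothelial markers, genes of the epicardial lining, had the highest median of all lists, 2.29. At an unadjusted p under 0.05, 6 of 13 were higher and 1 lower, against 5.04% and 5.16% of all genes. In either direction 0 were without overlap, against 4.68% of all genes higher and 5.45% lower. Msln, which encodes mesothelin, measured 0.205, 0.849, 2.16 and 0.685 CPM without and 0.532, 9.82 and 5.03 CPM with the cocktail. Upk1b, a uroplakin gene, measured 0.0856, 0.519, 1.02 and 0.102 CPM without and 0.118, 3.88 and 2.80 CPM with the cocktail. Treated replicates 2 and 3 were the high libraries in both, and the median of the list was -0.17 without the 3 libraries. Wt1, a transcription factor of the same lining, had a negative log2 fold change, -0.44 ± 0.19, at 8.58, 7.91, 4.57 and 6.37 CPM without and 5.50, 4.75 and 4.87 CPM with the cocktail. Potassium channel genes gave 5 higher and 3 lower of 32 tested, against the same 5.04% and 5.16% of all genes. Kcnj12, an inward rectifier of the ventricle, measured 14.3, 8.55, 15.4 and 15.1 CPM without and 18.9, 20.4 and 23.9 CPM with the cocktail. Abcc8, a subunit of the ATP-sensitive channel, measured 63.5, 47.3, 61.6 and 58.9 CPM without and 67.7, 74 and 101 CPM with the cocktail.

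Ventricular myocyte genes had a median of -0.12 over 11 genes. At an unadjusted p under 0.05, 1 was higher and 2 lower, against 5.04% and 5.16% of all genes. The median was 0.05 without the 3 libraries high in Myl7 and Sln and 0.42 with the mitochondrial share as a covariate. Gja1, the main gap junction protein of working myocardium, measured 172, 177, 119 and 203 CPM without and 103, 152 and 100.3 CPM with the cocktail. Irx4, a ventricular transcription factor, measured 18.6, 20.5, 13.5 and 22 CPM without and 17, 14.8 and 10.9 CPM with the cocktail. Conduction and pacemaker genes gave 0 of 14 tested in either direction, and Cntn2, a marker of the conduction system, measured 3.34, 42.2, 91.8 and 25.9 CPM without and 10.2, 51.4 and 63.4 CPM with the cocktail, lowest in obese replicate 1 and treated replicate 1 as Myl7 was. Sarcomere and calcium-handling genes had a median of 0.08 with 1 higher and 1 lower of 27. Des, the intermediate filament desmin of muscle, was higher without overlap at 532, 490.3, 486 and 591 CPM without and 711, 715 and 672 CPM with the cocktail. Pdgfrb, a pericyte receptor and dasatinib target, measured 65.5, 75.5, 64.4 and 60.3 CPM without and 68.6, 60.01 and 51.6 CPM with the cocktail.

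Among 28 macrophage and monocyte markers 1 was higher and 2 lower at an unadjusted p under 0.05, against 5.04% and 5.16% of all genes. Cd63, a lysosomal and vesicle membrane protein found in many cells, measured 21.4, 28.6, 27.9 and 24.1 CPM without and 33.1, 42.5 and 36.6 CPM with the cocktail, higher without overlap. Cx3cr1, the fractalkine receptor of monocytes, measured 1.32, 4.01, 1.47 and 1.18 CPM without and 0.636, 1.38 and 0.853 CPM with the cocktail, highest in obese replicate 2. Lgals3, which encodes galectin-3, measured 1.15, 2.26, 4.51 and 1.31 CPM without and 1.23, 5.46 and 11.2 CPM with the cocktail, high in the libraries rich in Myl7 and Sln, and its log2 fold change went from 1.37 to -0.35 without them. Interferon-stimulated genes gave 0 higher and 1 lower of 26 (median -0.04, and -0.32 without those libraries), and MHC class II genes 0 of 7. Neutrophil and mast cell markers, to which Kit also belongs as a gene of mast cells, gave 0 higher and 2 lower of 11 tested.

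Of 23 hypoxia and angiogenic genes 3 were higher and 3 lower at an unadjusted p under 0.05, against 5.04% and 5.16% of all genes. Vegfa, the main endothelial growth factor, measured 449, 321, 199 and 375 CPM without and 265, 186 and 219 CPM with the cocktail, overlapping between the groups. Vegfb, its relative of fat-burning muscle, measured 81.8, 59.3, 70.3 and 100.4 CPM without and 121, 134 and 99.6 CPM with the cocktail. Adipocyte markers had a median of 0.26 with all libraries and -0.94 without the 3 high in Myl7 and Sln, with summed levels of 536 to 608 and 522 to 659 CPM in the 2 groups. The immediate early genes, which respond within minutes to handling, had a median of -0.05 with 2 of 23 higher and 0 lower. Without those libraries their median was -0.49. Cholesterol synthesis genes gave 1 higher and 0 lower of 26, skeletal muscle markers 2 and 0 of 10, lymphocyte markers 2 and 0 of 21, and Schwann cell and neural markers 1 and 0 of 17.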

How the data were processed

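Heart RNA-seq libraries were analysed from 1 table of whole-number counts per gene deposited by the authors for 11 libraries. Per the submitters' processing notes, cutadapt, HISAT2 and StringTie were used with GRCm38. Neither these notes nor the labels say if the counts are whole reads or were computed from coverage, so the meaning of very low counts is uncertain. No tool version, annotation or strand setting is named there or in the labels, so reads of overlapping or antisense genes cannot be told apart. Of 55487 identifiers 55227 were named from GENCODE M21. Genes were kept by edgeR's filterByExpr (minimum count 10, minimum total 15) and scaled by TMM, and all 11 libraries in 3 groups were fitted with edgeR 4.0.16 in R 4.3.3 (robust quasi-likelihood test, Benjamini-Hochberg adjustment, threshold 0.05). DESeq2 1.42.0 and limma 3.58.1 voom, other scalings, filters, covariates and left-out libraries were alternatives. The method was tested on simulated data. No library pair was a repeat deposit by a chi-square comparison of counts. Library measures were compared by exact two-sided permutation tests.

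The genes and the 45 lists were chosen with earlier results of these data known. Genes named were, at a mean of at least 1 CPM, the 12 with the smallest p, the 8 largest differences in each direction among those with an unadjusted p under 0.05 and no overlap, up to 4 per list with at least 3 members at that p in all, and a set chosen for the treatment; 3 genes that this rule names are not reported here. The rankings by p and by size left out predicted genes and clones. Promoters are from RefSeq. Intronic share as a covariate was added after seeing the data. Depth was 52736860 to 72282073 counts per library, and counting error is small beside the spread between libraries except for genes near 1 CPM or below.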

Additional observations from a re-analysis of the deposited data

Results flagged for a closer look

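In 136 sets of 4 obese values (21 library measures and 115 genes), a library that stood apart from the other 3 by Dixon's 95% criterion was found in 8; chance flags about 1 in 20 such sets. Obese replicate 4 had the largest total of its group, 67247567 counts. It also stood above the others in Mpped2, a ventricular gene, at 15.1 CPM. Obese replicate 3 stood above the others in Pdk4, at 494 CPM, and obese replicate 1 above them in Ppp1r15a, of the stress response, at 13.2 CPM and below them in Vgll2 at 0.240 CPM. Obese replicate 2 stood below the others in Fbxo32 at 116 CPM and in Kcnj12 at 8.55 CPM, and above them in Trp53 at 20.2 CPM. Without obese replicate 3 the log2 fold change of Pdk4 was 1.52, against 1.17 with all libraries.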

How the results depend on the processing

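edgeR called 0 genes at an adjusted p under 0.05 with all libraries, 2 with upper-quartile scaling, 2 with no filter on low counts (in both cases Tfrc and Fstl4), 0 to 24 with single libraries left out (24 without obese replicate 3) and 5 without the 3 libraries high in Myl7 and Sln. DESeq2 called 132. Genes higher at an unadjusted p under 0.05 numbered 1826 with the replicate block, 1926 with the mitochondrial share as a covariate and 592 to 1802 with single libraries left out (592 without treated replicate 2, 1802 without obese replicate 3). Without the 3 libraries there were 461 higher and 608 lower, from fewer libraries. Lower genes numbered 672 to 1652 with single libraries left out, the least without treated replicate 2. Same-numbered treated and obese libraries had residual correlations of 0.40, 0.07 and 0.34. Treated replicate 1 correlated best with obese replicate 1, and treated replicates 2 and 3 both correlated best with obese replicate 3. These values do not settle whether equal numbers mark a pairing. The block called 0 genes and changed no call.

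Log2 fold changes turned sign without the 3 libraries in Enah (-0.0090), Lgals3 (-0.35), Pdgfrb (0.044), Msln (-0.12), Upk1b (-0.97), Gdf15 (-0.22), Nppa (-0.47), Nppb (-0.77), Myl7 (-2.41), Sln (-3.12), Cntn2 (-1.21), Abl1 (0.031) and Src (-0.55). They turned with the mitochondrial share as a covariate in Irx4 (0.026), Cntn2 (-1.0), Nqo1 (0.62) and Src (-0.12), with upper-quartile scaling in Cntn2 (-0.022), with intronic share in Src (-0.0076), and with the atrial level in Cntn2 (-0.63) and Nqo1 (0.050). Nqo1 was 0.0065 by limma voom and 0.17 with the block. With single libraries left out Col1a1 spanned -0.34 to 0.21, Cntn2 -0.40 to 0.81, Nqo1 -0.22 to 0.19 and Src -0.045 to 0.34. The cause was not tested. Of all log2 fold changes under alternatives, 2670 kept their sign and side of the threshold, 54 passed it and 34 turned sign. With 3 treated libraries, differences in genes below 1 CPM rest on few counts.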

Other observations

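Treated replicate 1 had a low level of Fgf2, a heparin-binding growth factor, that no other library shared. Fgf2 measured 26.4, 30.8, 41.6 and 30.2 CPM without and 1.89, 26.4 and 33.3 CPM with the cocktail. Nkapd1 was low in the same library, at 10.3, 11.4, 9.59 and 10.3 CPM without and 3.43, 8.94 and 9.54 CPM with the cocktail. So was the predicted gene Gm20634, at 4.35, 6.01, 3.98 and 7.23 CPM without and 0.222, 2.75 and 5.46 CPM with the cocktail. All 3 genes were among the 5 that edgeR called without the 3 libraries high in Myl7 and Sln, where treated replicate 1 is the single treated library. The other 2 were Pdk4 and Mt2. These genes were noted after their values were seen.

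Some genes outside the lists were called by edgeR only when obese replicate 3 was left out. Of those given here, DESeq2 with all libraries called Bcl6b, Pcdh12 and Tll2 (adjusted p 0.0249, 0.0483 and 0.0125), but not Inmt or Aldh1a1. Bcl6b, a transcriptional repressor of endothelium and lymphocytes, measured 19, 36.4, 8.48 and 18.9 CPM without and 8.64, 8.95 and 6.03 CPM with the cocktail. Pcdh12, a protocadherin of vascular endothelium, measured 20.03, 22.3, 9.32 and 17.3 CPM without and 8.98, 10.9 and 6.88 CPM with the cocktail. In both genes obese replicate 3 lay at the level of the treated libraries and the other obese libraries lay above all of them. Tll2, a tolloid-like protease, measured 2.09, 5.93, 0.735 and 2.99 CPM without and 0.695, 0.823 and 0.463 CPM with the cocktail. Inmt, an N-methyltransferase, was highest in obese replicate 3 at 3.54, 3.80, 19 and 6.00 CPM without and 11.2, 14 and 9.69 CPM with the cocktail. Aldh1a1, an enzyme of retinoic acid synthesis, measured 12.8, 15.8, 42.7 and 15.6 CPM without and 27.4, 26.3 and 33.6 CPM with the cocktail, also highest there.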
